A study of Homo sapiens with 20 samples.

Results

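The cytosolic chaperones and chaperonin subunits were 38 genes, chosen by symbol from a written list, and all 38 were found among the 21201 gene symbols of the expression table. They fell by known role into 9 groups: 2 HSP90 chaperones, 9 HSP90 co-chaperones, 3 HSP70 chaperones, 3 members of the HSP110 family, 5 HSP70 co-chaperones, 1 small heat shock protein (HSPB1), 1 regulator (HSF1), 8 subunits of the chaperonin TRiC and 6 subunits of prefoldin. The rule itself uses no measured value, but the list was chosen with earlier results of these data known. Poly(A) RNA had been sequenced from 5 human tumor cell lines treated for 24 h with 1 µM G007-LK, a small-molecule inhibitor of tankyrase 1 and 2, or with 0.01% DMSO as the control. The lines were COLO 320DM (colon), ABC-1 (lung), UO-31 (kidney) and OVCAR-4 (ovary), which the study had selected as tankyrase inhibitor (TNKSi)-sensitive by growth inhibition, and RKO (colon), its insensitive control. Each group had 2 biological replicates, 20 libraries in all. ABC-1 and RKO were grown in EMEM and the other lines in RPMI-1640, so that medium and line cannot be told apart where COLO 320DM, UO-31 or OVCAR-4 is compared with RKO.

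Chaperones bind unfolded or partly folded proteins and help them reach or keep their native state. In the cytosol, nascent chains meet HSP70 with its J-domain partners and nucleotide exchange factors, many kinases and steroid receptors are then passed to HSP90 with its co-chaperones, and actin and tubulin are folded inside the double-ring chaperonin TRiC (also called CCT), to which prefoldin delivers them. Many of these genes are induced by heat shock through the transcription factor HSF1, which binds repeats of the sequence nGAAn, and several are expressed at high levels in growing tumor cells without any stress.

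Values were RPKM as the authors had computed them, that is reads scaled by the length of the gene and by the mapped reads of the library. No read counts were at hand, so the depth behind a value is unknown. Because whole cell populations were measured, fewer cells of a type and less RNA per cell cannot be told apart. The RPKM of all genes together summed to 367196 to 909187 per library and was highest in OVCAR-4. Over all tested genes, the log2 fold change of G007-LK over DMSO had a median of -0.14 for ABC-1, -0.11 for OVCAR-4, -0.04 for UO-31, -0.02 for RKO and -0.01 for COLO 320DM. Each comparison was therefore repeated after every library had been divided by its median ratio to the other libraries of its line, here called rescaled. The G007-LK libraries of UO-31 stood apart from each other, with a median log2 difference over all genes of -0.28 (replicate 2 minus replicate 1). Of the markers of the labelled tissues, CDX2 was at 633 RPKM in COLO 320DM and 7.13 RPKM in RKO, and CDH17 at 4.40 RPKM in COLO 320DM and near 0 in RKO, whereas VIL1 and LGALS4 were under 0.05 RPKM in both colon lines. The kidney markers PAX8, PAX2 and CDH16 were at 70.8, 7.15 and 2.75 RPKM in UO-31, where LRP2 was near 0. The ovary markers PAX8, SOX17 and MUC16 were at 85.0, 177 and 10.2 RPKM in OVCAR-4, where WT1 was near 0. The lung markers NAPSA, SFTPB and SFTA3 were at most 0.23 RPKM in ABC-1. The 8 markers of blood and endothelium summed to at most 8.11 RPKM in any library. HSPA1A and HSPA1B are near-identical copies, and HSP90AA1, HSP90AB1, HSPA8 and several subunit genes have related genes or pseudogenes, so reads shared between them may have been split by the alignment.

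The promoter sequences of the genes were examined for heat shock elements before their levels. RefSeq windows of 250 bases before a transcription start (build GRCh38.p14) were at hand for 32 of the 38 genes, 48 windows in all. An element of 8 bases, either GAANNTTC or TTCNNGAA (each reads the same on both strands, and neighbouring elements can overlap), was in 14 of the 48 windows (29.2%), against 11.6% of 35116 windows of all genes, and in the windows of 13 of the 32 genes. A longer form, with 3 alternating units (GAA, TTC and GAA, or on the other strand TTC, GAA and TTC, with any 2 bases between units), was in the windows of 4 genes, HSP90AA1, HSP90AB1, HSPA8 and CHORDC1 (4 of 48 windows, 8.33%, against 0.441% of all windows). The E-box CACGTG was in 1 of the 48 windows, before a start of FKBP5, against 6.34% of all windows. A match of letters is a description of the sequence and not a binding site.

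The following stretches show those elements in capitals, 5′ to 3′ on the strand of the gene. The first 5 come from the 4 genes with the longer form, all of which fell in the 4 sensitive lines, and the last 3 from heat-inducible genes that passed the test in none of these lines or in 1 or 2 of them (below). Stretches of 30 bases lie inside annotated alternative transcripts. Not shown are the single 8-base elements of DNAJA1, TCP1 and CCT2, which also fell in all 4 sensitive lines. Those of HSPA4L, PFDN6 and HSPB1, which did not fall in all 4, are not shown either.
HSP90AA1 (chr14:102087085-102087152, minus strand, 68 bases): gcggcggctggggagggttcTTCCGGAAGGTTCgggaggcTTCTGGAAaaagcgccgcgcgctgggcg
HSP90AB1 (chr6:44247758-44247863, plus strand, 106 bases): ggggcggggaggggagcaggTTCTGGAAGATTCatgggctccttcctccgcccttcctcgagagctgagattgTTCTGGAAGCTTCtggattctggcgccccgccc
HSPA8 (chr11:123062345-123062374, minus strand, 30 bases): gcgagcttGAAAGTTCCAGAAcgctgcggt
HSPA8 (chr11:123062170-123062199, minus strand, 30 bases): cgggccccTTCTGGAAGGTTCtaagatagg
CHORDC1 (chr11:90223227-90223274, minus strand, 48 bases): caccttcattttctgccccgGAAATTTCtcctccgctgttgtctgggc
DNAJB1 (chr19:14518417-14518494, minus strand, 78 bases): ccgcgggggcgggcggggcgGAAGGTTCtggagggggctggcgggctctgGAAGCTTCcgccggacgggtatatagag
HSPA1A (chr6:31815417-31815464, plus strand, 48 bases): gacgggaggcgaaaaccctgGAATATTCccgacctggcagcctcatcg
HSPA1B (chr6:31827613-31827660, plus strand, 48 bases): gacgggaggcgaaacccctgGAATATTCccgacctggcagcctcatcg
The HSP90AA1, HSP90AB1 and DNAJB1 stretches each lie before a start downstream of the first annotated start of the gene. The CHORDC1 stretch holds only the upstream 1 of its 6 elements and not the longer form, since the others lie in sequence that overlaps an annotated transcript. HSPA1A and HSPA1B share the same element in almost the same surroundings. Over the sensitive lines, the 12 genes with an 8-base element that could be tested had a median log2 fold change of -0.49 and 9 of them fell, and the 19 genes with a window but no such element had a median of -0.42 and 17 of them fell (all genes over these lines: 33.8% lower, 10.2% higher, 44.1% in either direction). The 3 with an element that did not pass were DNAJB1, HSPA1B and HSPB1. All 4 genes with the longer form fell over these lines (median -0.55). Of the 27 tested genes with a window but without the longer form, 22 fell as well (median -0.42).

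In the sensitive lines, most of the chaperone genes fell with G007-LK. In COLO 320DM, 21 of 37 genes tested fell (of all genes, 11.6% were called lower, 7.7% higher and 19.3% in either direction) and the other 16 did not pass the threshold. In ABC-1, 29 of 38 fell and UNC45A rose (all genes: 41.2% lower, 16.6% higher, 57.9% in either direction). In UO-31, 22 of 37 fell and the other 15 did not pass (all genes: 8.63% lower, 4.79% higher, 13.4% in either direction). In OVCAR-4, 30 of 38 fell and HSPB1 and PFDN5 rose (all genes: 39% lower, 12.6% higher, 51.5% in either direction). In RKO, 11 of 38 fell and the other 27 did not pass (all genes: 2.75% lower, 1.36% higher, 4.11% in either direction). The test was limma on log2(RPKM + 0.5) with Benjamini-Hochberg adjustment over all genes tested in a line and a threshold of 0.05. HSPA1A was near 0 in COLO 320DM and UO-31 and was not tested there.

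The shift was of moderate size and covered most of the set. The chaperone genes had a median log2 fold change of -0.64 for ABC-1, -0.41 for UO-31, -0.29 for COLO 320DM, -0.26 for OVCAR-4 and -0.07 for RKO. After rescaling, which brings the median of all genes near 0, their medians were -0.49 for ABC-1, -0.37 for UO-31, -0.28 for COLO 320DM, -0.14 for OVCAR-4 and -0.05 for RKO. On the deposited scale, 28 of 37 genes in UO-31, 27 of 37 in COLO 320DM, 23 of 38 in ABC-1, 22 of 38 in RKO and 19 of 38 in OVCAR-4 lay below the 25th percentile of all genes of the line. After rescaling, 26 fell and 1 (ST13) rose in COLO 320DM (all genes: 20.2% lower, 18.4% higher, 38.6% in either direction). ABC-1 then had 26 that fell and 3 that rose (32.4% lower, 31.4% higher, 63.8% in either direction), and UO-31 had 24 that fell (15.5% lower, 14.6% higher, 30.1% in either direction). OVCAR-4 had 23 that fell and 4 that rose (23% lower, 24.1% higher, 47% in either direction), and RKO had 6 that fell (1.06% lower, 1.65% higher, 2.71% in either direction).

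**Figure D1:**
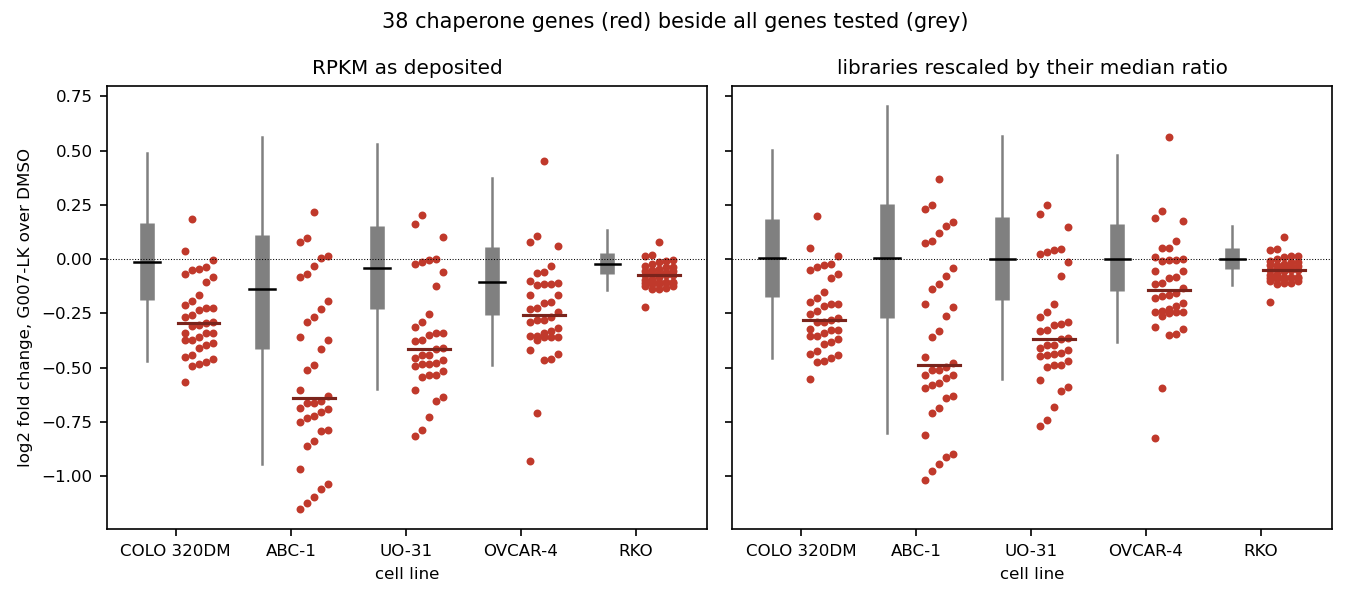
Log2 fold change of G007-LK over DMSO (vertical axis) in 5 cell lines, on the deposited scale (left) and after rescaling (right). Grey bars span the 25th to 75th percentiles of all genes tested, grey lines the 5th to 95th and black ticks mark their median. Red points are the chaperone genes and the dark red line is their median, which is lowest in ABC-1 (-0.64 as deposited) and nearest 0 in RKO (-0.07).

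These counts were not equally stable. In COLO 320DM 3 genes passed when G007-LK replicate 2 was left out and 13 when its partner, replicate 1, was. In UO-31 a single gene passed without either DMSO replicate (1 and 1), when only the G007-LK libraries that stood apart were left to set the spread. In RKO, 1 gene passed without DMSO replicate 1, DMSO replicate 2 or G007-LK replicate 2, 5 passed without G007-LK replicate 1, and with the spread shared by all 20 libraries none passed, also at an unadjusted p under 0.05 (0 of 38, limma). With 1 library left out, the median of the genes ran from -0.37 to -0.21 for COLO 320DM, from -0.57 to -0.28 for UO-31 and from -0.09 to -0.07 for RKO. In ABC-1 and UO-31, limma set the spread of each gene to the common trend on the deposited scale, so that p-values there rest on the spread of all genes and the rescaled p-values, which also use the gene's own, are given beside the largest changes.

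Across lines, 18 of the 37 genes tested in all of them fell in all 4 sensitive lines on the deposited scale (all genes: 3.75%). After rescaling 18 did (all genes: 5.91%), of which 17 were the same genes. Those on the deposited scale were both HSP90 chaperones, FKBP4, STIP1, AHSA1, PTGES3, CHORDC1, HSPA8, HSPA4, HSPH1, DNAJA1, TCP1, CCT2, CCT3, CCT5, CCT6A, CCT7 and PFDN2, of which PFDN2 missed the threshold in OVCAR-4 after rescaling. A further 5 genes fell in 3 of these lines, 6 in 2, 3 in 1 and 6 in none. No gene passed the threshold in opposite directions in different lines, on either scale. Both G007-LK libraries lay below both DMSO libraries in all 4 sensitive lines for 25 of the 37 genes (all genes: 14.6%). Within a line this held for 29 of 37 tested genes in COLO 320DM (all genes: 31.7%), 31 of 38 in ABC-1 (52.5%), 29 of 37 for UO-31 (30.3%), 32 of 38 for OVCAR-4 (54.6%) and 29 of 38 in RKO (35.2%). In the fit over the 16 libraries of the sensitive lines with the line as a block, 29 of 37 genes fell and PFDN5 rose (all genes: 33.8% lower, 10.2% higher, 44.1% in either direction). After rescaling, 27 fell and 4 rose (all genes: 28% lower, 21.9% higher, 49.9% in either direction).

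**Figure D2:**
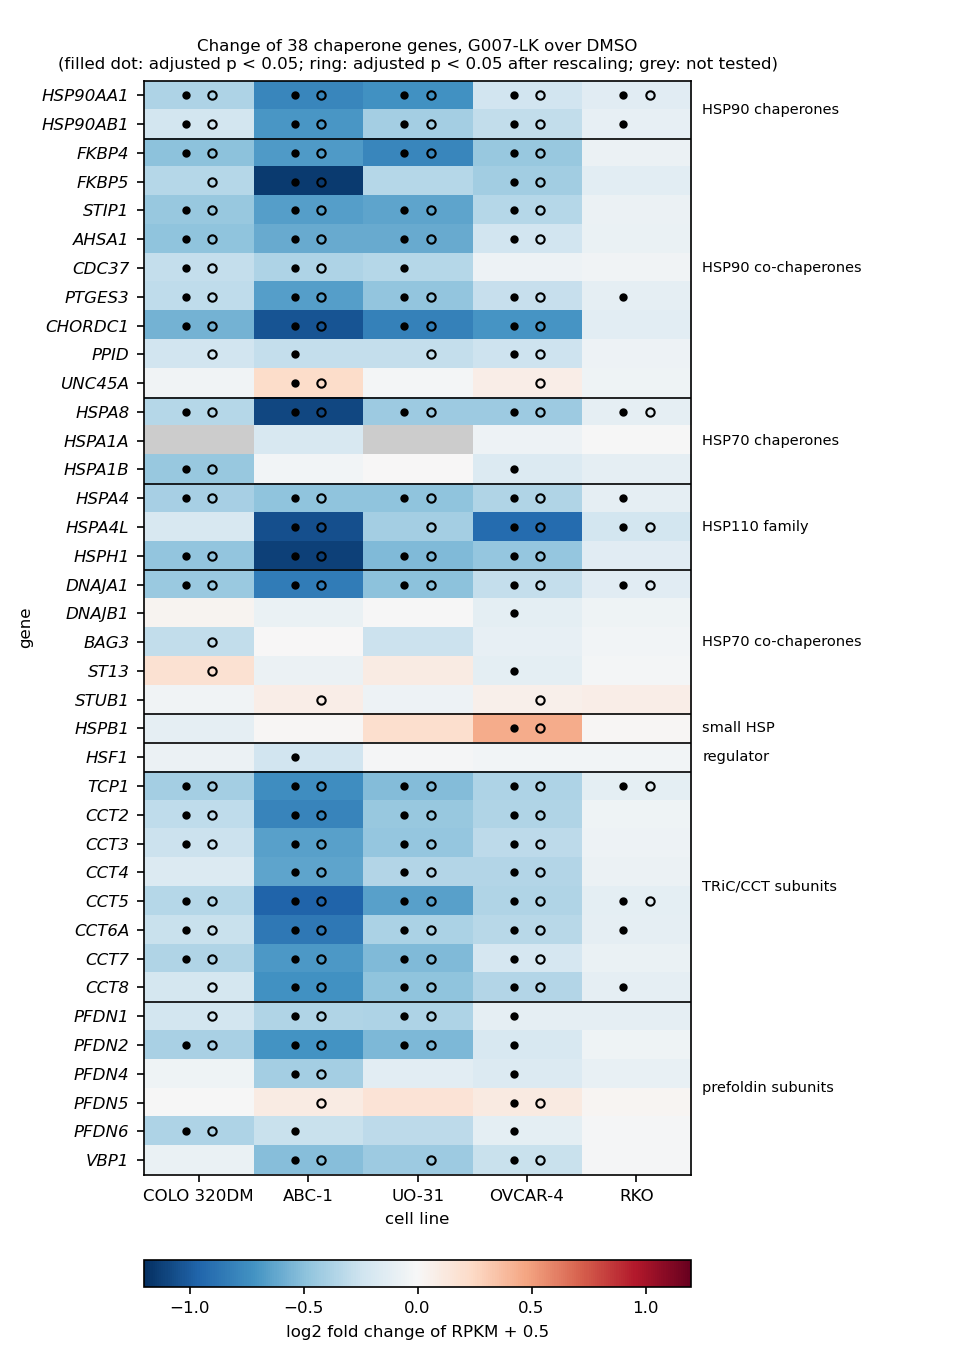
Log2 fold change of G007-LK over DMSO, as colour, for the 38 genes (rows, grouped by role) in 5 cell lines (columns). A filled dot marks an adjusted p under 0.05 on the deposited scale, a ring the same after rescaling, and grey a gene that was not tested. Blue rows with dots in the 4 sensitive lines include both HSP90 genes, HSPA8, HSPH1, CHORDC1, FKBP4 and TCP1, and the pale rows include HSF1, DNAJB1, STUB1 and PFDN5.

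HSP90 is made from an inducible gene, HSP90AA1 (chr14:102547079-102606036 of GRCh37, minus strand), and a constitutive gene, HSP90AB1 (chr6:44213903-44221625 of GRCh37, plus strand), and both fell in every line on the deposited scale. HSP90AA1 was at 218 and 200.4 RPKM in the G007-LK libraries of ABC-1, against 331 and 393 RPKM in its DMSO libraries, a log2 fold change of -0.79 ± 0.06 (SE, adjusted p = 1.3e-43, rescaled -0.63 with adjusted p = 5.2e-07). UO-31 cells had 541 and 415 RPKM with G007-LK, against 792 and 780.3 RPKM with DMSO, a log2 fold change of -0.73 ± 0.09 (SE, adjusted p = 6.1e-15, rescaled adjusted p = 0.0023). In neither line did the groups overlap, and the UO-31 G007-LK libraries differed from each other more than the DMSO libraries did. In COLO 320DM it was at 400.5 and 362 RPKM with G007-LK, against 455 and 535 RPKM with DMSO, a log2 fold change of -0.37 ± 0.08 (SE, adjusted p = 0.0024). OVCAR-4 cells had 1199.8 and 1196 RPKM with G007-LK, against 1379.7 and 1421 RPKM with DMSO, a log2 fold change of -0.23 ± 0.03 (SE, adjusted p = 2.7e-05, rescaled -0.11 with adjusted p = 0.0028). RKO cells had 611 and 591 RPKM with G007-LK, against 651 and 669 RPKM with DMSO, a log2 fold change of -0.14 ± 0.02 (SE, adjusted p = 0.011), and the groups were apart. The limma test of the difference from RKO (below) passed in ABC-1 (-0.65, adjusted p = 0.00086) and UO-31 (-0.59, adjusted p = 0.034). It did not pass in COLO 320DM (-0.24, adjusted p = 0.16) except after rescaling (adjusted p = 0.016). In OVCAR-4 it passed on neither scale (-0.09, adjusted p = 0.065, rescaled -0.0009 with adjusted p = 0.99).

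HSP90AB1 was the more abundant of the pair in every library. It was at 717 and 670.1 RPKM in the G007-LK libraries of COLO 320DM, against 761 and 859.9 RPKM in its DMSO libraries, a log2 fold change of -0.22 ± 0.07 (SE, adjusted p = 0.023). ABC-1 cells had 488 and 473 RPKM with G007-LK, against 739 and 827 RPKM with DMSO, a log2 fold change of -0.70 ± 0.05 (SE, adjusted p = 4.1e-48, rescaled -0.55 with adjusted p = 9.9e-07). UO-31 cells had 802 and 677 RPKM with G007-LK, against 988 and 974 RPKM with DMSO, a log2 fold change of -0.41 ± 0.08 (SE, adjusted p = 9e-06, rescaled adjusted p = 0.03). The groups did not overlap in any of the 5 lines. OVCAR-4 cells had 1345 and 1365 RPKM with G007-LK, against 1651 and 1665 RPKM with DMSO, a log2 fold change of -0.29 ± 0.03 (SE, adjusted p = 2.6e-06, rescaled -0.18 with adjusted p = 0.00011). RKO cells had 1188 and 1164 RPKM with G007-LK, against 1249 and 1265 RPKM with DMSO, a log2 fold change of -0.10 ± 0.02 (SE, adjusted p = 0.018), and it missed the threshold there after rescaling (adjusted p = 0.056). The ratio of HSP90AA1 to HSP90AB1 RPKM was 0.67 and 0.61 in G007-LK libraries of UO-31, against 0.80 and 0.80 in DMSO libraries, whereas the OVCAR-4 ratio was 0.89 and 0.88 in G007-LK libraries, against 0.84 and 0.85 in DMSO libraries. The inducible gene thus lost more than its partner in UO-31 and less in OVCAR-4. The ratios themselves were not tested.

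Most co-chaperones of HSP90 fell as well. Of the 9, 6 fell in COLO 320DM (all genes: 11.6% lower), 8 in ABC-1 (41.2%), 6 in UO-31 (8.63%), 7 in OVCAR-4 (39%) and 1 (PTGES3) in RKO (2.75%). CHORDC1 (chr11:89933597-89956245 of GRCh37, minus strand), a zinc-binding co-chaperone of HSP90, had the largest fall of the set in COLO 320DM and UO-31. It was at 5.69 and 4.56 RPKM in the G007-LK libraries of COLO 320DM, against 7.37 and 8.23 RPKM in its DMSO libraries, a log2 fold change of -0.57 ± 0.15 (SE, adjusted p = 0.012). UO-31 cells had 12.5 and 8.27 RPKM with G007-LK, against 18.3 and 18.3 RPKM with DMSO, a log2 fold change of -0.81 ± 0.20 (SE, adjusted p = 0.00067, rescaled adjusted p = 0.0019). In ABC-1 it was at 4.25 and 3.79 RPKM with G007-LK, against 8.00 and 9.60 RPKM with DMSO, a log2 fold change of -1.04 ± 0.12 (SE, adjusted p = 2.7e-17, rescaled -0.89 with adjusted p = 3e-07). OVCAR-4 cells had 35.2 and 35.4 RPKM with G007-LK, against 57.0 and 58.8 RPKM with DMSO, a log2 fold change of -0.71 ± 0.05 (SE, adjusted p = 2.2e-07, rescaled -0.59 with adjusted p = 2.9e-06). All G007-LK libraries were below the DMSO libraries of their line, and the same was seen in RKO, where it was at 12.6 and 12.2 RPKM with G007-LK, against 13.3 and 13.9 RPKM with DMSO but did not pass (log2 fold change -0.13, adjusted p = 0.12).

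FKBP4 and FKBP5 are peptidyl-prolyl isomerases of HSP90-steroid receptor complexes. FKBP4 (chr12:2904136-2914589 of GRCh37, plus strand) was at 103 and 98.6 RPKM in the G007-LK libraries of COLO 320DM, against 137 and 146 RPKM in its DMSO libraries, a log2 fold change of -0.49 ± 0.08 (SE, adjusted p = 0.00028). UO-31 cells had 43.9 and 38.2 RPKM with G007-LK, against 72.6 and 69.4 RPKM with DMSO, a log2 fold change of -0.79 ± 0.14 (SE, adjusted p = 3.3e-06, rescaled adjusted p = 0.00089). In ABC-1 it was at 56.8 and 58.8 RPKM with G007-LK, against 89.6 and 96.8 RPKM with DMSO, a log2 fold change of -0.68 ± 0.07 (SE, adjusted p = 6.1e-21, rescaled -0.53 with adjusted p = 2.4e-06). Its groups were apart in every line. OVCAR-4 cells had 103 and 111 RPKM with G007-LK, against 149 and 146 RPKM with DMSO, a log2 fold change of -0.46 ± 0.04 (SE, adjusted p = 4.1e-06, rescaled -0.34 with adjusted p = 6.6e-05). RKO cells had 59.6 and 58.7 RPKM with G007-LK, against 62.8 and 61.6 RPKM with DMSO and did not pass (log2 fold change -0.07, adjusted p = 0.14), and its response was lower than that of RKO in all 4 sensitive lines (below). FKBP5 had the largest fall of the set in ABC-1, at 2.35 and 2.25 RPKM with G007-LK, against 5.27 and 6.18 RPKM with DMSO, a log2 fold change of -1.15 ± 0.13 (SE, adjusted p = 7.9e-19, rescaled -1.02 with adjusted p = 1.5e-07). It was scarce in that line and highest in COLO 320DM, where it was at 22.1 and 19.7 RPKM with G007-LK, against 23.9 and 29.7 RPKM with DMSO and missed the threshold (log2 fold change -0.34, adjusted p = 0.058) except after rescaling (adjusted p = 0.0061). OVCAR-4 cells had 6.42 and 7.09 RPKM with G007-LK, against 8.78 and 9.64 RPKM with DMSO, a log2 fold change of -0.42 ± 0.08 (SE, adjusted p = 0.00096, rescaled -0.31 with adjusted p = 0.0065).

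STIP1, which bridges HSP70 and HSP90, and AHSA1, which activates the ATPase of HSP90, fell in the 4 sensitive lines. STIP1 was at 95.2 and 88.6 RPKM in the G007-LK libraries of COLO 320DM, against 119 and 133 RPKM in its DMSO libraries, a log2 fold change of -0.45 ± 0.08 (SE, adjusted p = 0.0011). UO-31 cells had 155 and 125 RPKM with G007-LK, against 218 and 216 RPKM with DMSO, a log2 fold change of -0.63 ± 0.12 (SE, adjusted p = 2.3e-06, rescaled adjusted p = 0.002). Its groups did not overlap in any of the 5 lines. AHSA1 was at 79.2 and 71.4 RPKM in the G007-LK libraries of COLO 320DM, against 100.3 and 111 RPKM in its DMSO libraries, a log2 fold change of -0.48 ± 0.09 (SE, adjusted p = 0.00087). UO-31 cells had 77.4 and 64.5 RPKM with G007-LK, against 109 and 106 RPKM with DMSO, a log2 fold change of -0.60 ± 0.13 (SE, adjusted p = 0.00016, rescaled adjusted p = 0.002). In ABC-1, STIP1 changed by -0.66 (rescaled -0.51) and AHSA1 by -0.60 (rescaled -0.45) on the log2 scale. In OVCAR-4, STIP1 changed by -0.34 (rescaled -0.23) and AHSA1 by -0.23 (rescaled -0.11, adjusted p = 0.0093), and neither passed in RKO (-0.07 and -0.08). PTGES3 (p23), which stabilizes the closed form of HSP90, fell in every line on the deposited scale. RKO cells had 258 and 253 RPKM with G007-LK, against 274 and 277 RPKM with DMSO, a log2 fold change of -0.11 ± 0.02 (SE, adjusted p = 0.019), and it missed the threshold there after rescaling (adjusted p = 0.053). CDC37, which brings kinases to HSP90, fell in COLO 320DM (-0.29), ABC-1 (-0.37) and UO-31 (-0.34) and did not pass in OVCAR-4 (-0.06) or RKO (-0.04). After rescaling it changed by -0.22 in ABC-1 and missed the threshold in UO-31 (-0.29, adjusted p = 0.052). The lines in which PPID (cyclophilin 40) fell depended on the scale. It fell in ABC-1 (-0.29) and OVCAR-4 (-0.24) as deposited, and after rescaling in COLO 320DM (-0.22, adjusted p = 0.023), UO-31 (-0.24, adjusted p = 0.036) and OVCAR-4 (-0.13, adjusted p = 0.025) but not in ABC-1 (-0.14, adjusted p = 0.051). UNC45A, a chaperone of myosin, was at 28.8 and 29.3 RPKM in the G007-LK libraries of ABC-1, against 24.1 and 25.9 RPKM in its DMSO libraries, a log2 fold change of 0.22 ± 0.09 (SE, adjusted p = 0.023, rescaled 0.37 with adjusted p = 9.1e-05), the only rise among the 38 genes in that line on the deposited scale.

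The constitutive HSP70 gene HSPA8 (chr11:122928197-122933938 of GRCh37, minus strand) fell in every line, and the inducible copies mostly did not. HSPA8 was at 416 and 396 RPKM in the G007-LK libraries of ABC-1, against 819 and 919 RPKM in its DMSO libraries, a log2 fold change of -1.09 ± 0.05 (SE, adjusted p = 1.4e-113, rescaled -0.94 with adjusted p = 4.7e-09). In COLO 320DM it was at 466 and 431 RPKM with G007-LK, against 536 and 600.2 RPKM with DMSO, a log2 fold change of -0.34 ± 0.07 (SE, adjusted p = 0.002). UO-31 cells had 836 and 676 RPKM with G007-LK, against 1056 and 986 RPKM with DMSO, a log2 fold change of -0.44 ± 0.08 (SE, adjusted p = 1.3e-06, rescaled adjusted p = 0.023). OVCAR-4 cells had 1656 and 1652 RPKM with G007-LK, against 2233 and 2246 RPKM with DMSO, a log2 fold change of -0.44 ± 0.02 (SE, adjusted p = 5.6e-08, rescaled -0.32 with adjusted p = 3.2e-06). It was the most abundant of the 38 genes in DMSO libraries of ABC-1, UO-31 and OVCAR-4. RKO cells had 850.1 and 831 RPKM with G007-LK, against 901 and 914 RPKM with DMSO, a log2 fold change of -0.11 ± 0.02 (SE, adjusted p = 0.012).

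HSPA1A (chr6:31783320-31785723 of GRCh37, plus strand) and HSPA1B (chr6:31795515-31798031 of GRCh37, plus strand) encode the same stress-inducible protein. HSPA1A was listed near 0 in COLO 320DM, at 0.043 and 0.014 RPKM with G007-LK, against 0.07 and 0.033 RPKM with DMSO, and in UO-31, at 0.084 and 0.085 RPKM with G007-LK, against 0.057 and 0.13 RPKM with DMSO, and was not tested there. It was at 19.5 and 19.5 RPKM in the G007-LK libraries of ABC-1, against 21.7 and 22.9 RPKM in its DMSO libraries, at 8.19 and 8.76 RPKM in the G007-LK libraries of OVCAR-4, against 9.20 and 8.49 RPKM in its DMSO libraries and at 1.61 and 1.36 RPKM in the G007-LK libraries of RKO, against 1.53 and 1.45 RPKM in its DMSO libraries, and passed in none of these lines. HSPA1B was present in every line and fell in COLO 320DM, at 13.0 and 11.8 RPKM with G007-LK, against 17.1 and 17.3 RPKM with DMSO, a log2 fold change of -0.46 ± 0.12 (SE, adjusted p = 0.014). It also fell in OVCAR-4 on the deposited scale, a log2 fold change of -0.17 ± 0.05 (SE, adjusted p = 0.017, rescaled -0.05 with adjusted p = 0.35). The ratio of HSPA1A to HSPA1B RPKM was 0.76 and 0.76 in G007-LK libraries of ABC-1, against 0.86 and 0.84 in DMSO libraries, and at most 0.01 in any library of COLO 320DM and UO-31. How reads were assigned between the copies was not tested.

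The HSP110 proteins, which release nucleotide from HSP70, fell widely. HSPH1 (chr13:31709110-31736525 of GRCh37, minus strand) was at 14.5 and 13.9 RPKM in the G007-LK libraries of ABC-1, against 30.0 and 33.1 RPKM in its DMSO libraries, a log2 fold change of -1.12 ± 0.09 (SE, adjusted p = 1.7e-33, rescaled -0.97 with adjusted p = 5.9e-09). In COLO 320DM it was at 45.1 and 40.7 RPKM with G007-LK, against 53.6 and 66.6 RPKM with DMSO, a log2 fold change of -0.47 ± 0.11 (SE, adjusted p = 0.0047). OVCAR-4 cells had 62.3 and 61.9 RPKM with G007-LK, against 86.2 and 85.4 RPKM with DMSO, a log2 fold change of -0.46 ± 0.04 (SE, adjusted p = 2.7e-06, rescaled -0.35 with adjusted p = 5e-05). UO-31 cells had 60.4 and 41.0 RPKM with G007-LK, against 71.6 and 72.8 RPKM with DMSO, a log2 fold change of -0.53 ± 0.14 (SE, adjusted p = 0.0029, rescaled adjusted p = 0.0081). The groups did not overlap in any of the 4 lines, and G007-LK replicate 2 was the lowest library of UO-31. HSPA4L was at 6.05 and 5.90 RPKM in the G007-LK libraries of ABC-1, against 12.4 and 13.5 RPKM in its DMSO libraries, a log2 fold change of -1.06 ± 0.11 (SE, adjusted p = 1.5e-20, rescaled -0.91 with adjusted p = 4.8e-08), and had the largest fall of the set in OVCAR-4, at 4.37 and 3.65 RPKM with G007-LK, against 7.67 and 8.44 RPKM with DMSO, a log2 fold change of -0.93 ± 0.10 (SE, adjusted p = 1.1e-05, rescaled -0.82 with adjusted p = 0.00011). It also had the largest fall of the set in RKO, at 14.5 and 13.7 RPKM with G007-LK, against 16.5 and 16.5 RPKM with DMSO, a log2 fold change of -0.22 ± 0.04 (SE, adjusted p = 0.019). In COLO 320DM its libraries overlapped, at 6.19 and 5.41 RPKM with G007-LK, against 5.42 and 8.25 RPKM with DMSO. HSPA4, the most abundant of the family, fell by 0.36 to 0.49 on the log2 scale in the sensitive lines (after rescaling, by 0.25 in OVCAR-4 and by 0.33 to 0.44 in the others). RKO cells had 114 and 111 RPKM with G007-LK, against 119 and 124 RPKM with DMSO, a log2 fold change of -0.11 ± 0.03 (SE, adjusted p = 0.048), which missed the threshold after rescaling (adjusted p = 0.12).

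**Figure D3:**
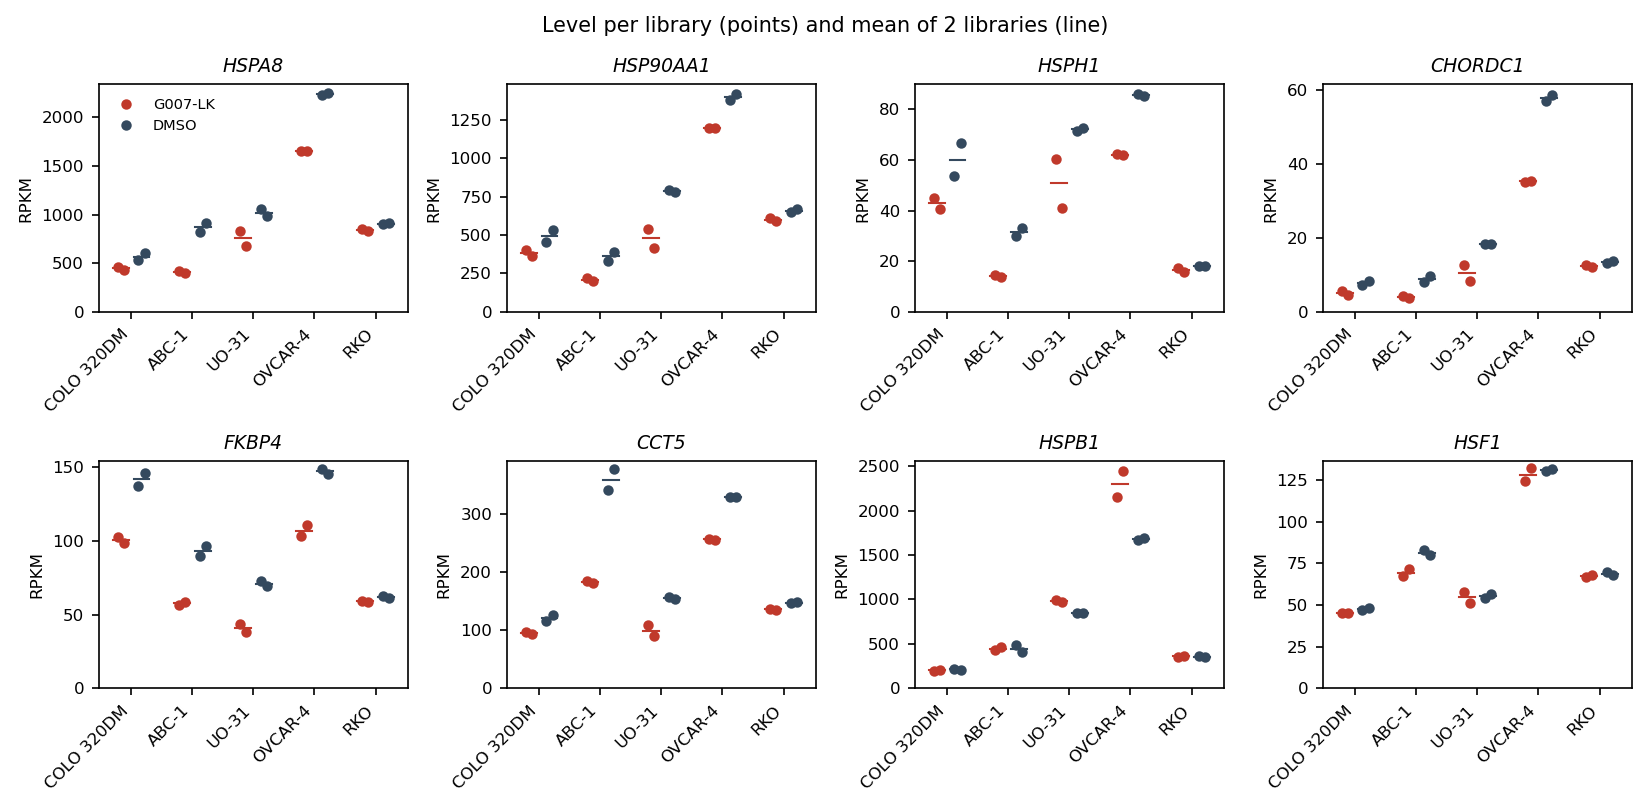
RPKM (linear axis from 0) of 8 genes in every library of 5 cell lines, with G007-LK in red left of DMSO in dark blue, and a line at the mean of the 2 libraries. HSPA8 in ABC-1 lies at 416 and 396 in G007-LK libraries, below 819 and 919 in DMSO libraries, HSPB1 in OVCAR-4 lies at 2149 and 2446, above 1664 and 1693, and HSF1 overlaps in UO-31, OVCAR-4 and RKO.

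Of the 5 HSP70 co-chaperones, DNAJA1 alone fell in all 4 sensitive lines. DNAJA1, a J-domain protein that stimulates the HSP70 ATPase, was at 72.9 and 69.0 RPKM in the G007-LK libraries of ABC-1, against 122 and 132 RPKM in its DMSO libraries, a log2 fold change of -0.84 ± 0.07 (SE, adjusted p = 4.2e-34, rescaled -0.68 with adjusted p = 7.9e-08). COLO 320DM cells had 89.6 and 81.2 RPKM with G007-LK, against 109 and 124 RPKM with DMSO, a log2 fold change of -0.44 ± 0.09 (SE, adjusted p = 0.002). It fell by 0.49 in UO-31 and by 0.28 in OVCAR-4 on the log2 scale. RKO cells had 210.5 and 209 RPKM with G007-LK, against 233 and 229 RPKM with DMSO, a log2 fold change of -0.14 ± 0.02 (SE, adjusted p = 0.0061). DNAJB1, the other J-domain protein and a strongly heat-inducible gene, was at 66.3 and 68.0 RPKM in the G007-LK libraries of ABC-1, against 68.0 and 74.2 RPKM in its DMSO libraries (log2 fold change -0.08, adjusted p = 0.34) and at 47.6 and 39.8 RPKM in the G007-LK libraries of UO-31, against 44.3 and 43.1 RPKM in its DMSO libraries (-0.01, adjusted p = 0.99). Its groups overlapped in COLO 320DM and UO-31. It passed in OVCAR-4 alone, at 121 and 122 RPKM with G007-LK, against 129.8 and 133 RPKM with DMSO, a log2 fold change of -0.12 ± 0.04 (SE, adjusted p = 0.021, rescaled -0.0035 with adjusted p = 0.94).

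BAG3, an exchange factor that works with small heat shock proteins, passed in no single line on the deposited scale, with log2 fold changes between -0.29 (COLO 320DM) and 0.003 (ABC-1). It fell in COLO 320DM after rescaling (-0.28, adjusted p = 0.018). ST13, which stabilizes substrate-bound HSP70, fell in OVCAR-4 (-0.12, adjusted p = 0.021), where it did not pass after rescaling, and rose in COLO 320DM only after rescaling (0.20, adjusted p = 0.023). STUB1, the ubiquitin ligase of chaperone clients, passed in no line on the deposited scale, with log2 fold changes between -0.06 in UO-31 and 0.08 in ABC-1 and RKO, and rose after rescaling in ABC-1 (0.23) and OVCAR-4 (0.17), while its RPKM as deposited overlapped between groups in both lines.

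HSPB1 (HSP27), a small heat shock protein that holds unfolded proteins without ATP, had the largest rise of the set. OVCAR-4 cells had 2149 and 2446 RPKM with G007-LK, against 1664 and 1693 RPKM with DMSO, a log2 fold change of 0.45 ± 0.07 (SE, adjusted p = 0.0047, rescaled 0.56 with adjusted p = 0.0006), with both G007-LK libraries above both DMSO libraries. UO-31 cells had 989 and 971 RPKM with G007-LK, against 853 and 848 RPKM with DMSO, also without overlap, and missed the threshold (log2 fold change 0.20, adjusted p = 0.06). In ABC-1, at 426 and 469.7 RPKM with G007-LK, against 482 and 406 RPKM with DMSO, and in RKO, at 354 and 366 RPKM with G007-LK, against 363 and 348 RPKM with DMSO, the groups overlapped. COLO 320DM cells had 196 and 206 RPKM with G007-LK, against 223 and 209.8 RPKM with DMSO (log2 fold change -0.10, adjusted p = 0.34).

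The level of HSF1, the heat shock factor itself, moved little. In COLO 320DM it was at 45.5 and 45.04 RPKM in G007-LK libraries, against 47.0 and 47.9 RPKM in DMSO libraries. It was at 57.9 and 51.5 RPKM in the G007-LK libraries of UO-31, against 53.9 and 56.4 RPKM in its DMSO libraries, at 124 and 132 RPKM in the G007-LK libraries of OVCAR-4, against 130.2 and 132 RPKM in its DMSO libraries and at 66.8 and 68.0 RPKM in the G007-LK libraries of RKO, against 69.7 and 68.0 RPKM in its DMSO libraries, and passed in none of these 4 lines. In ABC-1 it was at 67.3 and 71.4 RPKM with G007-LK, against 83.2 and 79.7 RPKM with DMSO, a log2 fold change of -0.23 ± 0.07 (SE, adjusted p = 0.0024, rescaled -0.08 with adjusted p = 0.35).

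TRiC is built from 8 different subunits, each present once in each ring, and their genes lie on different parts of the genome. All 8 fell in ABC-1, UO-31 and OVCAR-4, on both scales (all genes lower: 41.2%, 8.63% and 39% as deposited, 32.4%, 15.5% and 23% after rescaling). In COLO 320DM, 6 fell (all genes: 11.6% lower), CCT4 and CCT8 did not pass (log2 fold changes -0.17 and -0.21), and CCT8 passed after rescaling (all genes: 20.2% lower). In RKO, TCP1, CCT5, CCT6A and CCT8 fell on the deposited scale (all genes: 2.75% lower), and after rescaling TCP1 and CCT5 (1.06%). The log2 fold changes of the 8 ran from -0.96 to -0.63 in ABC-1, from -0.65 to -0.35 in UO-31, from -0.41 to -0.17 in COLO 320DM, from -0.37 to -0.20 in OVCAR-4 and from -0.12 to -0.05 in RKO.

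**Figure D4:**
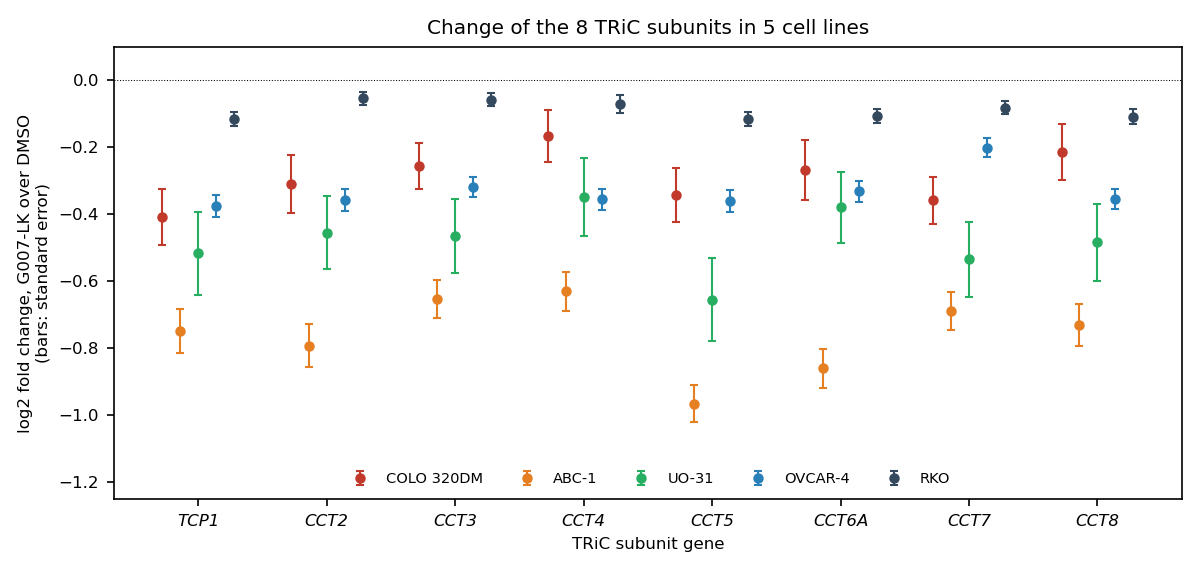
Log2 fold change of G007-LK over DMSO with its standard error (vertical axis) for the 8 TRiC subunit genes (horizontal axis) in 5 cell lines. ABC-1 is lowest for each subunit, from -0.96 for CCT5 to -0.63 for CCT4, and RKO nearest to 0, from -0.12 to -0.05.

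CCT5 (chr5:10250041-10266501 of GRCh37, plus strand) had the largest fall of the 8 in ABC-1 and UO-31. It was at 186 and 182 RPKM in the G007-LK libraries of ABC-1, against 342 and 377 RPKM in its DMSO libraries, a log2 fold change of -0.96 ± 0.06 (SE, adjusted p = 2.5e-64, rescaled -0.81 with adjusted p = 1.5e-08). UO-31 cells had 109 and 90.2 RPKM with G007-LK, against 158 and 155 RPKM with DMSO, a log2 fold change of -0.65 ± 0.12 (SE, adjusted p = 5.9e-06, rescaled adjusted p = 0.0016). RKO cells had 137 and 136 RPKM with G007-LK, against 147 and 148 RPKM with DMSO, a log2 fold change of -0.12 ± 0.02 (SE, adjusted p = 0.019). Its groups did not overlap in any of the 5 lines.

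TCP1 (chr6:160199530-160210735 of GRCh37, minus strand), the alpha subunit, was at 109 and 101 RPKM in the G007-LK libraries of COLO 320DM, against 131 and 148 RPKM in its DMSO libraries, a log2 fold change of -0.41 ± 0.08 (SE, adjusted p = 0.0024). ABC-1 cells had 82.4 and 77.1 RPKM with G007-LK, against 127 and 142 RPKM with DMSO, a log2 fold change of -0.75 ± 0.07 (SE, adjusted p = 2.4e-28, rescaled -0.60 with adjusted p = 3.4e-07). UO-31 cells had 115 and 94.7 RPKM with G007-LK, against 151 and 147 RPKM with DMSO, a log2 fold change of -0.52 ± 0.12 (SE, adjusted p = 0.00063, rescaled adjusted p = 0.0041). OVCAR-4 cells had 224 and 223 RPKM with G007-LK, against 287 and 292 RPKM with DMSO, a log2 fold change of -0.37 ± 0.03 (SE, adjusted p = 3.1e-06, rescaled -0.26 with adjusted p = 6.6e-05). RKO cells had 167 and 164 RPKM with G007-LK, against 179 and 181 RPKM with DMSO, a log2 fold change of -0.12 ± 0.02 (SE, adjusted p = 0.019). Its groups were likewise apart in every line, by least in RKO. CCT6A was at 156 and 147 RPKM in the G007-LK libraries of ABC-1, against 266 and 285 RPKM in its DMSO libraries, a log2 fold change of -0.86 ± 0.06 (SE, adjusted p = 4.9e-47, rescaled -0.71 with adjusted p = 5.3e-08). RKO cells had 174 and 174 RPKM with G007-LK, against 184 and 189.7 RPKM with DMSO, a log2 fold change of -0.11 ± 0.02 (SE, adjusted p = 0.029). CCT8 was at 223 and 219 RPKM in the G007-LK libraries of RKO, against 235 and 242 RPKM in its DMSO libraries, a log2 fold change of -0.11 ± 0.02 (SE, adjusted p = 0.029). CCT7, whose response on the deposited scale differed from that of RKO in each sensitive line (below, in OVCAR-4 not after rescaling), was at 178 and 157 RPKM in the G007-LK libraries of UO-31, against 245 and 239 RPKM in its DMSO libraries, a log2 fold change of -0.53 ± 0.11 (SE, adjusted p = 5.7e-05, rescaled adjusted p = 0.0062).

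The subunit genes did not have equal RNA levels, and their shares of the sum differed more between lines than between treatments. The summed RPKM of the 8 genes was 1297 and 1220.1 in G007-LK libraries of COLO 320DM, against 1462 and 1616 in DMSO libraries. It was 1176 and 1138 in G007-LK libraries of ABC-1, against 1877 and 2054 in DMSO libraries. In UO-31 it was 1351 and 1128 with G007-LK, against 1732 and 1686 with DMSO, and in OVCAR-4 3099 and 3079 with G007-LK, against 3845 and 3884 with DMSO. In RKO it was 1708 and 1705 with G007-LK, against 1788 and 1828 with DMSO, so the sum was lower with G007-LK in every line. As a share of the sum in DMSO libraries, the most abundant subunit was CCT7 in COLO 320DM (23.4%), CCT5 in ABC-1 (18.3%), CCT6A in UO-31 (16.2%), CCT8 in OVCAR-4 (17.6%) and CCT2 in RKO (20.2%). The most abundant subunit exceeded the scarcest by 1.86 times in UO-31 to 3.14 times in COLO 320DM. With G007-LK, no share moved by more than 2.41 percentage points, the largest being the loss of CCT5 in ABC-1, followed by the gain of CCT7 in OVCAR-4 (1.38 points) and of CCT4 in ABC-1 (1.31 points). These shares are a description of mean values over 2 libraries and were not tested.

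**Figure D5:**
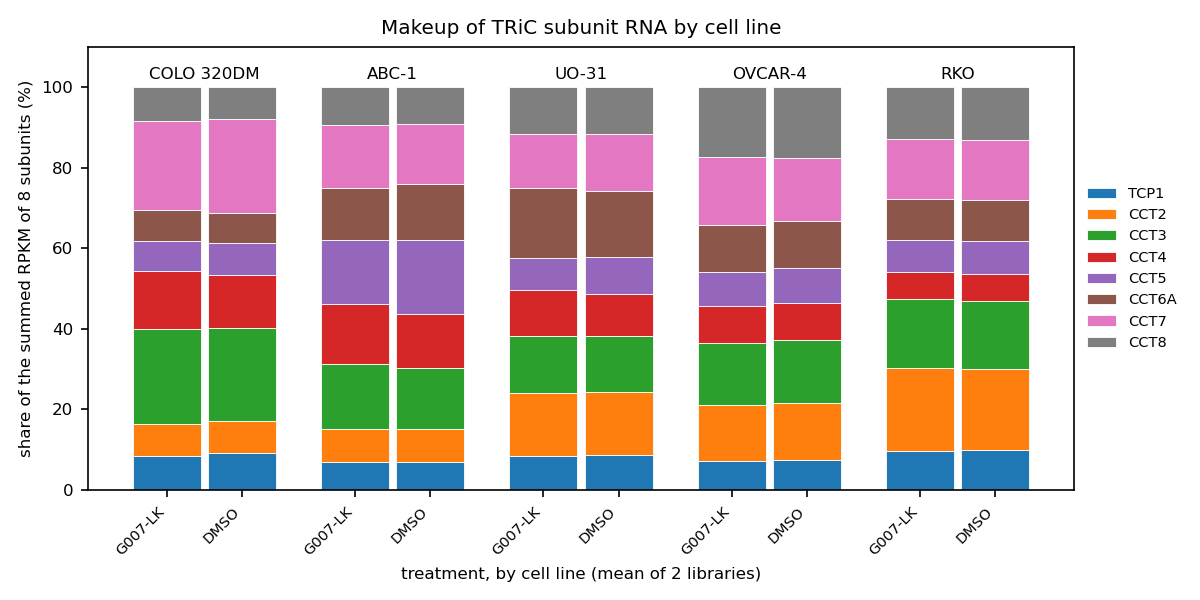
Share of the summed RPKM of the 8 TRiC subunit genes (vertical axis, in percent, each bar adding to 100) taken by each subunit, for G007-LK (left bar) and DMSO (right bar) in 5 cell lines, as means of 2 libraries. The bars differ more between lines than within them: CCT7 takes 23.4% in COLO 320DM with DMSO and CCT2 takes 20.2% in RKO.

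Prefoldin, a jellyfish-shaped complex of 6 subunits that captures unfolded actin and tubulin, fell in part. Of its 6 genes, PFDN2 and PFDN6 fell in COLO 320DM (all genes: 11.6% lower), 5 in ABC-1 (41.2%), PFDN1 and PFDN2 in UO-31 (8.63%) and 5 in OVCAR-4 (39%). In RKO their log2 fold changes lay between -0.10 and 0.02 with adjusted p of 0.067 or more. After rescaling, 1 of the 6 fell in OVCAR-4 (VBP1), where 23% of all genes were lower. PFDN2 was at 61.6 and 56.2 RPKM in the G007-LK libraries of UO-31, against 89.6 and 82.6 RPKM in its DMSO libraries, a log2 fold change of -0.54 ± 0.14 (SE, adjusted p = 0.0014, rescaled adjusted p = 0.0062), and in ABC-1 it changed by -0.72 on the log2 scale. PFDN5 was alone among the 6 in rising. OVCAR-4 cells had 448 and 451 RPKM in G007-LK libraries, against 407 and 428 RPKM in DMSO libraries, a log2 fold change of 0.11 ± 0.03 (SE, adjusted p = 0.018, rescaled 0.22 with adjusted p = 0.00015). In ABC-1 it passed only after rescaling (0.25, adjusted p = 0.0011), and in UO-31 both G007-LK libraries lay above both DMSO libraries without passing (0.16, adjusted p = 0.32). The summed RPKM of the 6 genes was 551 and 553 in G007-LK libraries of ABC-1, against 639 and 648 in DMSO libraries, a smaller difference than that of TRiC in the same line. In RKO it was 579 and 577 with G007-LK, against 586 and 592 with DMSO.

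The study set each sensitive line against RKO, and the difference between the response of a line and that of RKO was tested as an interaction over their 8 libraries. In ABC-1, 29 of 38 genes had a lower response than in RKO and UNC45A a higher one (all genes: 33% lower, 13% higher, 46% in either direction). In OVCAR-4, 23 had a lower response and HSPB1 a higher one (26.2% lower, 7.69% higher, 33.9% in either direction). Fewer passed in COLO 320DM, where 7 of 38 had a lower response (6.98% lower, 4.81% higher, 11.8% in either direction), and in UO-31, where 8 of 38 did (3.84% lower, 2.41% higher, 6.25% in either direction). FKBP4, STIP1, AHSA1, CCT7 and PFDN2 had a lower response than in RKO in all 4 lines (5 of 38 genes, against 1.09% of all genes). After rescaling, the OVCAR-4 difference no longer passed for AHSA1 (-0.06, adjusted p = 0.21), CCT7 (-0.03, adjusted p = 0.47) or PFDN2 (-0.05, adjusted p = 0.28). The difference for FKBP4 was -0.42 in COLO 320DM (adjusted p = 0.0062), -0.61 in ABC-1 (1.2e-05), -0.71 in UO-31 (0.0099) and -0.39 in OVCAR-4 (0.00068). For HSPA8 the difference was -0.98 for ABC-1 (adjusted p = 1.5e-07) and -0.33 for OVCAR-4 (adjusted p = 6.6e-05), and it did not pass in COLO 320DM (-0.23, adjusted p = 0.084) or UO-31 (-0.33, adjusted p = 0.13) on the deposited scale. After rescaling it passed at about the same size in COLO 320DM (-0.24, adjusted p = 0.012) and UO-31 (-0.31, adjusted p = 0.028), and thus in all 4 lines. The same RKO libraries enter all 4 comparisons, which are therefore not independent of each other.

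The number of differing genes in COLO 320DM and UO-31 depended on the scale and on which libraries were in the fit. After rescaling it was 27 for ABC-1 (all genes: 50.5%), 22 for COLO 320DM (27.8%), 22 for UO-31 (22.3%) and 19 for OVCAR-4 (28.6%), and 11 genes had a lower response than RKO in all 4 lines (all genes: 2.58%), FKBP4, STIP1, CHORDC1, HSPA8, HSPA4, HSPH1, TCP1, CCT2, CCT3, CCT5 and CCT6A. In COLO 320DM, on the deposited scale, it was 24 without DMSO replicate 1, 12 without DMSO replicate 2, 3 without G007-LK replicate 2 and 1 without any of the RKO libraries. In UO-31 it was 31 without G007-LK replicate 1, 26 without G007-LK replicate 2 and 0 without either DMSO replicate or any of the RKO libraries (18 to 20 of 38 at an unadjusted p under 0.05, limma). Without 1 RKO library the median difference of the 38 genes stayed between -0.22 and -0.20 for COLO 320DM (-0.21 with all libraries) and between -0.32 and -0.31 for UO-31 (-0.31 with all libraries), so the count fell while the size of the difference moved little. Without 1 library of the line itself the median difference moved more, from -0.27 to -0.14 for COLO 320DM and from -0.47 to -0.18 for UO-31.

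The levels in DMSO libraries show how much RNA of each chaperone the lines held without the inhibitor. The median of the 38 genes was 237 RPKM in OVCAR-4 (17.5 RPKM for all genes at 1 RPKM or more), 121 RPKM in RKO (11.3 RPKM), 110.1 RPKM in COLO 320DM (10.3 RPKM), 100.04 RPKM in ABC-1 (11.3 RPKM) and 98.9 RPKM in UO-31 (11.5 RPKM). The most abundant was HSP90AB1 in COLO 320DM (810.2 RPKM) and RKO (1257 RPKM) and HSPA8 in ABC-1 (869 RPKM), UO-31 (1021 RPKM) and OVCAR-4 (2240 RPKM). All 38 genes differed in OVCAR-4 from the mean of the other lines, 36 higher and 2 lower (all genes: 75% higher, 15.1% lower, 90.1% in either direction). Their median log2 difference was 1.05, against 0.85 for all genes. After rescaling of the DMSO libraries to a common median ratio, 20 genes were higher in OVCAR-4, 12 lower and 6 did not pass, with a median of 0.11, and 10 genes turned from higher to lower: HSP90AB1, FKBP4, PTGES3, PPID, DNAJA1, BAG3, ST13, STUB1, PFDN2 and PFDN5. The share of all genes in each direction was not computed after this rescaling, so these rescaled counts have no background beside them. The levels that follow are on the deposited scale. The genes with the widest range between lines were HSPA1A, HSPB1, CHORDC1, CCT8, DNAJB1 and HSPA4. HSPB1 averaged 1678 RPKM in OVCAR-4, 851 RPKM in UO-31, 444 RPKM in ABC-1, 356 RPKM in RKO and 216 RPKM in COLO 320DM, a range of 7.76 times. CHORDC1 averaged 57.9 RPKM in OVCAR-4, 18.3 RPKM in UO-31, 13.6 RPKM in RKO, 8.80 RPKM in ABC-1 and 7.80 RPKM in COLO 320DM, and of these only the DMSO libraries of ABC-1 (8.00 and 9.60 RPKM) and COLO 320DM (7.37 and 8.23 RPKM) overlapped. HSPA4 averaged 329 RPKM in OVCAR-4 and 65.1 to 122 RPKM in the other lines, CCT8 681 RPKM in OVCAR-4 and 122 to 238 RPKM in the others, and DNAJB1 132 RPKM in OVCAR-4 and 23.9 to 71.3 RPKM in the others. The least variable was PPID, at 26.2 to 47.0 RPKM.

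A second list of 45 chaperone genes, written from general knowledge, held further members of the same systems and was compared with the 38. This list too was chosen with earlier results of these data known, so it is not an independent reference. In COLO 320DM 13 of its 40 tested genes passed in either direction (all genes: 19.3%), 28 of 40 did so in ABC-1 (57.9%), 24 of 43 in OVCAR-4 (51.5%), 8 of 41 in UO-31 (13.4%) and 2 of 40 in RKO (4.11%), shares near those of all genes in OVCAR-4 and RKO. Over the 4 sensitive lines, 24 of 39 fell and 3 rose (all genes: 33.8% lower, 10.2% higher), with a median log2 fold change of -0.20, against -0.43 for the 37 genes tested and -0.09 for all genes. After rescaling, 19 fell and 4 rose (28% lower, 21.9% higher). The largest falls were those of BAG2 (-0.60 ± 0.11, SE), an inhibitor of the ligase STUB1, RUVBL1 (-0.57 ± 0.07), an ATPase of the R2TP complex, TOMM34 (-0.49 ± 0.07), which helps mitochondrial precursors, and HSPA14 (-0.48 ± 0.08), a ribosome-associated HSP70. Those that rose included AHSA2 (0.35 ± 0.08), related to the HSP90 activator AHSA1, and DNAJB2 (0.34 ± 0.08), a J-domain protein. In the R2TP and prefoldin-like group of 7, medians were -0.32 in COLO 320DM, -0.55 in ABC-1, -0.30 in UO-31 and -0.24 in OVCAR-4. The first list had -0.29, -0.64, -0.41 and -0.26 in the same order. Of the 7, 3 fell in COLO 320DM (all genes: 11.6%), 6 in ABC-1 (41.2%), 3 in UO-31 (8.63%) and 5 in OVCAR-4 (39%). After rescaling, the medians of this group were -0.31, -0.40, -0.25 and -0.12. Of the cofactors of tubulin folding and TRiC, 3 of 8 were lower in ABC-1 (all genes: 41.2%) and 2 of 8 in OVCAR-4 (39%), with medians of -0.04 and -0.09. After rescaling the direction turned in these lines, with 2 lower and 4 higher in ABC-1 (32.4% lower, 31.4% higher) and 0 lower and 2 higher in OVCAR-4 (23% lower, 24.1% higher), and medians of 0.11 and 0.03. It did not turn in COLO 320DM (median -0.07, rescaled -0.06) or UO-31 (median -0.11, rescaled -0.06).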

How the data were processed

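RNA of 20 libraries (5 cell lines, G007-LK or DMSO, 2 replicates each) was captured with oligo(dT) beads and sequenced on an Illumina HiSeq instrument. The authors mapped reads to the reference gene set (hg19 in the submitters' processing notes) with SOAPaligner/SOAP2, allowing few mismatches, and deposited 1 RPKM value per gene and library. The versions of their software are not given in the sources used. Missing values were set to 0. The deposited tables of NOISeq comparisons (log2 ratios and probabilities) were not used, and limma took the place of NOISeq.

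Within each line, genes averaging 1 RPKM or more were tested on log2(RPKM + 0.5) with limma 3.58.1 in R 4.3.3 (trend and robust, two-sided, Benjamini-Hochberg adjustment over all tested genes, threshold 0.05). p-values rest on the spread between 2 biological replicates, which limma draws toward the trend over all genes. In ABC-1 and UO-31 on the deposited scale they rest on that trend. The fits were tested on simulated data first. The simulated libraries left out the shift of a whole library against its replicate, so they do not show how the fits behave under such shifts. Tables and figures were made with Python 3.11.15, pandas 2.3.3, numpy 2.4.6 and matplotlib 3.10.9. Promoter windows came from RefSeq (GRCh38.p14), gene positions from GENCODE (GRCh37).

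The 38 genes and the other lists were chosen with earlier results of these data known. Library values are given for up to 8 called genes with the largest changes in each line whose groups did not overlap, for genes called in RKO, for the 6 with the widest range of DMSO levels and for HSP90AA1, HSP90AB1, HSPA8, HSF1 and TCP1, and those of other genes were added after their values had been seen. From the second list, the 4 largest falls and up to 4 largest rises over the sensitive lines are named, apart from 1 gene that is not reported here.

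Alternatives were pseudocounts of 0.1 and 1, testing without a filter or only genes averaging 5 RPKM or more, median ratio rescaling, quantile normalization, 1 fit over 20 libraries, a replicate block, leaving out libraries or lines, and a NOISeq-type rule (probability over 0.8). The crossed block and rescaling with 1 library left out were added after the data had been seen.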

Additional observations from a re-analysis of the deposited data

Results flagged for a closer look

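The response to G007-LK differed from that of RKO by a test of the difference itself (limma interaction, adjusted p under 0.05) for 7 of the 38 genes in COLO 320DM, 30 in ABC-1, 8 in UO-31 and 24 in OVCAR-4. Of all genes, 11.8% differed in COLO 320DM, 46% in ABC-1, 6.25% in UO-31 and 33.9% in OVCAR-4. The counts of COLO 320DM and UO-31 depended strongly on which library was left out (above). Without 1 RKO library the median difference of the 38 genes stayed between -0.22 and -0.20 for COLO 320DM and between -0.32 and -0.31 for UO-31. Without 1 library of the line itself it ran from -0.27 to -0.14 for COLO 320DM and from -0.47 to -0.18 for UO-31. The responses of ABC-1 and OVCAR-4 kept a count within 1.5 times its value whichever library was left out.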

How the results depend on the processing

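The counts of chaperone genes that passed stayed within 1.5 times their values under every alternative run for ABC-1 and OVCAR-4 (each against DMSO and against RKO), for the sensitive lines together and for the DMSO levels. These counts take both directions together, and the direction of the DMSO levels was not stable. In OVCAR-4, 36 genes higher and 2 lower than the other lines (all genes: 75% higher, 15.1% lower) became 20 higher and 12 lower after rescaling. The share of all genes in each direction was not computed on the rescaled levels. In COLO 320DM, 10 genes passed with no filter and 10 with the replicate block. Leaving out 1 library gave 3 to 27 genes there, and 13 to 29 with rescaling as well. In UO-31, 12 passed with no filter, 1 to 31 with 1 library left out, and 7 to 33 with rescaling as well (7 without either DMSO replicate). In RKO, 0 passed with no filter and 0 with the fit over 20 libraries (limma, 24 and 0 at an unadjusted p under 0.05, and 10 by the NOISeq-type rule), 6 with rescaling, 4 with quantile normalization, 1 with the replicate block, 1 to 5 with 1 library left out, and 0 to 1 with rescaling as well. The difference from RKO passed for 22 genes with rescaling in COLO 320DM and 22 in UO-31, for 0 in COLO 320DM (15 unadjusted, limma) and 16 in UO-31 with the replicate block, and for 1 to 24 in COLO 320DM and 0 to 31 in UO-31 with 1 library left out. The labels state no pairing of replicates, and whether samples were paired was not tested. Deviations of same-numbered libraries correlated at -0.25 in COLO 320DM, -0.25 in ABC-1, -0.02 in UO-31, 0.01 in OVCAR-4 and 0.06 in RKO. With crossed numbers, 29 genes passed in COLO 320DM and 32 in ABC-1. Quantile normalization turned the log2 fold change in ABC-1 to 0.18 for HSPA1B, 0.17 for DNAJB1, 0.16 for ST13 and 0.021 for HSF1, and in OVCAR-4 to 0.013 for DNAJB1 and 0.097 for HSF1. PFDN1 in OVCAR-4 was 0.0011 after rescaling, and HSPB1 in ABC-1 ran from -0.11 without DMSO replicate 2 to 0.14 without DMSO replicate 1. The cause of these shifts was not tested.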
